A study of Mus musculus with 24 samples.

Results

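The expression of 10 genes of natural killer (NK) cells and cytotoxic T cells was followed in the heart during experimental autoimmune myocarditis (EAM). The 10 genes were taken by their symbols, matched to the Ensembl identifiers of the count table, and all 10 are among its 41388 genes. RNA of a portion of the heart was sequenced from 24 wild type Balb/c mice (BALB/cAnNCrl, young adult males), with 4 EAM mice and 4 controls on each of 3 days after the first immunization (D10, D15 and D21). EAM mice received on day 0 and day 7 an emulsion of 200 µl of myosin heavy chain peptide (100 µg) in PBS with supplemented complete Freund's adjuvant (SCFA), and pertussis toxin (PTX) on day 0. Control mice received SCFA with PBS, without peptide, on both days and the same PTX, so all 6 groups had been given both adjuvants. As far as possible, EAM hearts with inflammation had been chosen for sequencing, which limits how far they stand for all immunized mice.

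Cytotoxic lymphocytes store perforin and granzymes in granules and release them onto a target cell. Perforin opens the membrane, and granzymes, which are serine proteases, enter and cut proteins inside. NK cells decide to release the granules through activating receptors such as NKG2D (Klrk1) and NKp46 (Ncr1) and inhibitory ones such as the CD94-NKG2A pair (Klrd1 and Klrc1), and cytotoxic CD8 T cells use several of the same molecules. In the inflamed heart these cells enter with many other leucocytes. In RNA of whole tissue, more cells of a type and more RNA per cell cannot be told apart.

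Of the 10 genes, 5 encode proteins of the granules or of secretion. Gzma (granzyme A) lies on chromosome 13 from 113093825 to 113100981 in GRCm38, Gzmk (granzyme K) on chromosome 13 from 113171608 to 113225908 and Gzmb (granzyme B) on chromosome 14 from 56258838 to 56262260, all on the minus strand. Prf1 (perforin) lies on chromosome 10 from 61297833 to 61304680 and Nkg7, a membrane protein of the granules, on chromosome 7 from 43437073 to 43438249, both on the plus strand. The other 5 encode receptors. Klrk1 (129610323 to 129623864), Klrd1 (129591782 to 129598775), Klrc1 (129666015 to 129678973) and Klrb1c (128778485 to 128789215), which carries the NK1.1 epitope in some mouse strains, lie together on chromosome 6, in the NK gene complex. Ncr1 lies on chromosome 7 from 4337724 to 4345164. All 10 are annotated as protein coding.

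Since the 10 genes moved together, the sequence before their start is shown for 4 of them, the 3 granule genes that hold matches to both the T-box and the RUNX motif and are best known as effectors, and Ncr1, the receptor most particular to NK cells. RefSeq sequences (GRCm38.p6) were found for 9 of the 10, all but Klrd1, and the 250 bases before the RefSeq start are printed from 5′ to 3′. That start need not be the GENCODE gene start given above: it adjoins it for Gzma, lies before it for Gzmb and Ncr1 and just inside the gene for Prf1. Capitals mark matches on either strand to AGGTGT or TCACAC (T-box, which may overlap each other), TGTGGT (RUNX), TTCNNNGAA (STAT) and TGANTCA (AP-1).
Gzma (chr13:113100982-113101231, minus strand): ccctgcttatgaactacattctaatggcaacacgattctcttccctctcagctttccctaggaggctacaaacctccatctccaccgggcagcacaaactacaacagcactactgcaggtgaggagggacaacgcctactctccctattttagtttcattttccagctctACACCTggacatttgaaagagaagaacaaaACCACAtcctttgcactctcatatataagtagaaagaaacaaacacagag
Gzmb (chr14:56262335-56262584, minus strand): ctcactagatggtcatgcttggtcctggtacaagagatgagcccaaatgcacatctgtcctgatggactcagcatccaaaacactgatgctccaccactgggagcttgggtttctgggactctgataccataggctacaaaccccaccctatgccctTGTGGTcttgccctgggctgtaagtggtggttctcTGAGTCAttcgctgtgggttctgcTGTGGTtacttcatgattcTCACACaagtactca
Prf1 (chr10:61297586-61297835, plus strand): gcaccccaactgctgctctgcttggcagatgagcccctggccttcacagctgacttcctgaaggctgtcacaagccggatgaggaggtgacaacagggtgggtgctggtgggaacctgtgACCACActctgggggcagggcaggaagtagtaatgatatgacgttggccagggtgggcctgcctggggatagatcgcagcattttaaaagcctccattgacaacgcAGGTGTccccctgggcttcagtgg
Ncr1 (chr7:4337465-4337714, plus strand): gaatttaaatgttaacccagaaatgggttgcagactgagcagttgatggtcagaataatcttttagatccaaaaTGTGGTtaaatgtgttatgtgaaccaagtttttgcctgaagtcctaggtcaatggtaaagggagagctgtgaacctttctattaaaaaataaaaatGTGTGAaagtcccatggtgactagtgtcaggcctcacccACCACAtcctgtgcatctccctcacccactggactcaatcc
T-box factors (T-bet and Eomes) and Runx3 are known regulators of cytotoxic lymphocytes. A T-box match stood in 6 of the 9 sequences, against 21.6% of 32817 sequences of the same length, and a RUNX match in 8 of 9, against 14.0%. The short ETS motif GGAA, not in capitals, was found in 7 of 9 and in 93.4% of all. A STAT match stood only in Nkg7 (7.01% of all) and an AP-1 match only in Gzmb (6.75% of all). These are matches of letters in a C57BL/6J reference, not sites of binding, and their number over 9 genes was not tested.

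The total counts lie between 15814863 and 24980864 per library. Levels are given as CPM, the reads of a gene divided by the size of its library after TMM scaling over the 24 libraries. A gene with no read in a library could still have had up to 3, which is 0.105 to 0.201 CPM. Such floors cover counting error only. The 10 genes are rare in the heart: together they took 35 to 96 reads in each of the 12 control hearts, 1196 to 2120 in D15 EAM hearts, 57 to 979 in D10 EAM hearts and 181 to 1369 in D21 EAM hearts. The library names carry a code that is shared by 20 libraries and is another one in the 4 D21 EAM libraries, so that at D21 the library code and EAM cannot be told apart. Among the markers of the heart itself, the summed level of 7 cardiomyocyte genes was 26700 to 33500 CPM in control hearts and 7230 to 18500 CPM in D15 EAM hearts.

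At D10, the 10 genes were higher on average in EAM hearts, but the group was carried by single hearts and no gene passed the test. Gzma was at 8.27, 0.963, 3.51 and 0.528 CPM in EAM replicates 1 to 4 and at 1.03, 0.717, 0.787 and 0.727 CPM in the controls. Klrk1 was at 13.3, 0.453, 1.78 and 0.686 CPM in EAM and at 0.971, 0.154, 0.169 and 0.397 CPM in control hearts. For both genes EAM replicate 1 stood far above all others and replicate 3 lay above the controls. Replicate 2 lay among the controls, and so did replicate 4 for Klrk1, while Gzma in replicate 4 was below all of them. Gzmb was also highest in replicates 1 and 3, with 8.44, 0.227, 1.5 and 0.581 CPM in EAM hearts and 0.112 to 0.264 CPM in controls. Ncr1 was at 2.65, 0.453, 1.06 and 0.792 CPM in EAM and at 0.286, 0.512, 0.169 and 0.331 CPM in control hearts. Prf1 lay between 0.113 and 2.87 CPM in EAM and between 0.112 and 0.615 CPM in control hearts. The rarer receptors were at 0.106 to 1.24 CPM (Klrd1), 0.0528 to 0.531 CPM (Klrc1) and 0.0528 to 1.72 CPM (Klrb1c) in EAM hearts, and at 0 to 0.359, 0 to 0.114 and 0.102 to 0.228 CPM in controls, again highest in EAM replicate 1. Only Nkg7 had all 4 EAM hearts (0.453 to 3.76 CPM) above all 4 controls (0.331 to 0.41 CPM), as 4.45% of the 16318 genes with enough reads over all 24 samples had at D10.

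At least 10 reads in at least 4 of the 8 samples of D10 were found for Gzma, Prf1, Klrk1 and Ncr1, and Gzmb, Gzmk, Nkg7, Klrd1, Klrc1 and Klrb1c had too few. The log2 fold changes of the 4 were 2.02 (standard error, SE, 0.77) for Gzma, 2.02 (SE 0.90) for Prf1, 3.27 (SE 1.18) for Klrk1 and 1.92 (SE 0.60) for Ncr1. With edgeR's quasi-likelihood test and Benjamini-Hochberg adjustment over 15029 genes, all 4 had an adjusted p of 0.328. A gene is named as called here if its FDR lay under 0.01 and its change reached 2-fold, and none of the 4 was called, nor any other gene (0%). All 4 had an unadjusted p under 0.05 and were higher in EAM, against 9.71% of genes. The likelihood ratio test of edgeR, DESeq2 and limma-voom called 0 of the 4 as well, and 0.299%, 0.319% and 0% of all genes. When all 24 samples shared one fit, all 10 could be tested, with log2 fold changes between 1.38 for Klrd1 and 4.96 for Gzmk and a median of 2.03. In that fit 0 of 10 were called (adjusted p = 0.108 to 0.294 by edgeR), and 8 of 10 had an unadjusted p under 0.05, against 14.4% of 16318 genes that were higher at that limit. Without EAM replicate 1 the log2 fold changes of Gzma, Prf1, Klrk1 and Ncr1 were 1.01, 0.97, 1.20 and 1.20, with genes kept at 10 reads in at least 3 of the 7 samples. The same hearts stood apart in other cells: the summed markers of CD4 T cells were at 14.3, 1.59, 4.51 and 1.58 CPM in EAM replicates 1 to 4, those of monocytes and macrophages at 2410, 658, 1250 and 796 CPM, and those of cardiomyocytes were lowest in replicate 1, at 17800 CPM. Their part in the D10 values was not tested.

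**Figure D1:**
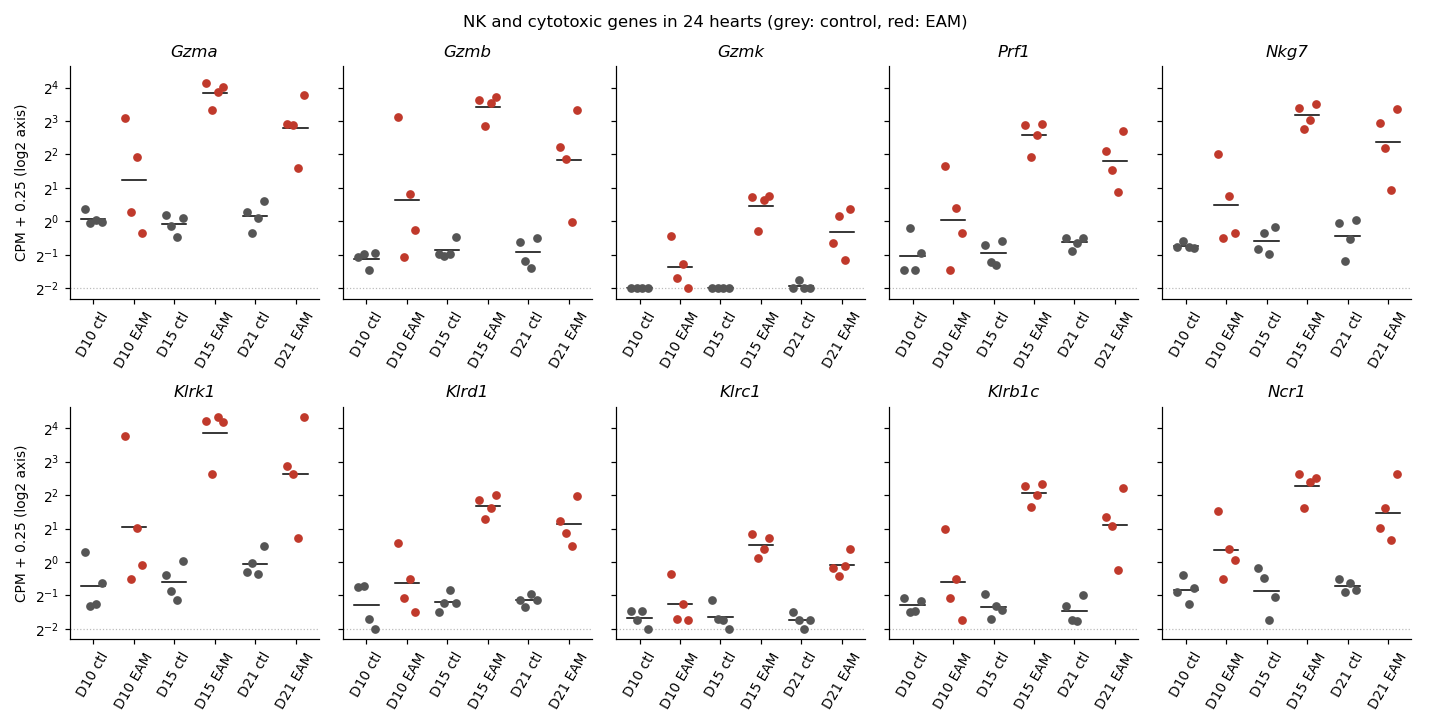
Level of each of the 10 genes in every heart, as CPM plus 0.25 on a log2 axis, with control hearts in grey and EAM hearts in red, 4 per group, replicates 1 to 4 from left to right, a black bar at the mean of the log2 values and a dotted line at 0 CPM. All 10 genes lie above every control heart at D15 and at D21, while at D10 one EAM heart lies far above the others.

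At D15, all 10 genes were higher in EAM hearts, by log2 fold changes between 3.80 and 7.70 with a median of 4.42, and for each of them all 4 EAM hearts lay above all 4 controls. All 10 were called, in the D15 samples alone and in the fit of all 24 (17.4% of its genes), where 18.1% of the 15693 genes tested were called higher in EAM, and 34.6% of genes had no overlap in that direction. These counts rest in part on the read limit. None of the 10 had 10 reads in all 4 D15 controls, 6 had them in none, and all met the limit through the 4 EAM hearts, so a gene as rare as these could only be tested if it was high in EAM. Of the 1419 tested genes without 10 reads in all 4 controls, 54.7% were called higher. The median log2 fold change of all genes was 0.02.

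Among the granule genes, Gzma was at 17.2, 9.71, 14.5 and 15.8 CPM in EAM replicates 1 to 4 and at 0.886, 0.65, 0.466 and 0.825 CPM in the controls. Its log2 fold change was 4.37 (SE 0.25, adjusted p = 5.9e-07 by edgeR's quasi-likelihood test). Gzmb, the granzyme that activates caspases, was at 12.2, 6.94, 11.3 and 12.8 CPM in EAM hearts and at 0.261, 0.236, 0.259 and 0.471 CPM in controls, a log2 fold change of 5.16 (SE 0.30, adjusted p = 5.62e-07 by edgeR). Replicate 2 was the lowest of the EAM hearts for both genes and still lay more than 10-fold above the highest control. Prf1 was at 7.16, 3.51, 5.78 and 7.33 CPM against 0.365, 0.177, 0.155 and 0.412 CPM (log2 fold change 4.43, SE 0.37, adjusted p = 5.69e-06 by edgeR). Nkg7 was at 10.3, 6.55, 7.98 and 11.2 CPM against 0.313, 0.532, 0.259 and 0.648 CPM, a log2 fold change of 4.41 (SE 0.29, adjusted p = 1.5e-06 by edgeR). Both again had their lowest EAM value in replicate 2.

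Gzmk, a granzyme of memory-type T cells and of some NK cells, had no read in any of the 4 D15 controls and 34, 16, 31 and 37 reads in the EAM hearts, which is 1.42, 0.561, 1.31 and 1.43 CPM. Against 3 reads over the 4 control libraries it was at least 27.9-fold higher, and its adjusted p was 0.000335 by edgeR. At D10 it was at least 4.53-fold higher, with 11, 1, 3 and 0 reads in EAM hearts and none in controls. The fitted log2 fold changes of Gzmk, 7.70 at D15 and 4.96 at D10, depend on a prior count. With Gzmk at its bound, the medians over the 10 genes were the same. Gzmk overlaps Esm1, an endothelial gene on the other strand. Esm1 had 175 to 242 reads in the D15 controls, where Gzmk had 0, and 56 to 136 reads in the D15 EAM hearts, where Gzmk was high.

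Among the receptors, Klrk1, which binds stress-induced ligands, was at 18.5, 5.96, 19.8 and 17.9 CPM in D15 EAM hearts and at 0.521, 0.295, 0.207 and 0.766 CPM in controls. Its log2 fold change was 5.15 (SE 0.50, adjusted p = 1.58e-05 by edgeR). EAM replicate 2 lay far below the other EAM hearts and still above every control. Ncr1 was at 5.91, 2.8, 4.98 and 5.4 CPM in EAM and at 0.625, 0.473, 0.0518 and 0.236 CPM in controls, which gave a log2 fold change of 3.80 (SE 0.46, adjusted p = 5.55e-05 by edgeR). Klrb1c was at 4.58, 2.87, 3.8 and 4.82 CPM against 0.0591 to 0.261 CPM (log2 fold change 4.71, SE 0.34). Klrd1, the CD94 chain, was at 3.37, 2.17, 2.83 and 3.74 CPM against 0.104 to 0.311 CPM (log2 fold change 3.97, SE 0.32). Its partner Klrc1, the inhibitory NKG2A chain, was at 1.54, 0.841, 1.06 and 1.39 CPM against 0 to 0.208 CPM (log2 fold change 3.81, SE 0.53). The adjusted p of these 3 lay between 2.26e-06 and 0.000118 by edgeR. Of the possible 75-base reads of Klrc1, 26.7% are also found in transcripts of Klrc2 or Klrc3, and of those of Klrb1c 15.0% in Klrb1a, Klrb1b or Gm44511, so that these 2 genes can share reads with near-identical copies. No 75-base stretch of the other 8 was found in another gene.

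At D21, the 10 genes were still above the controls in all 4 EAM hearts, as 18.2% of the 16318 genes with enough reads over all samples were, but the hearts differed widely among themselves. Gzma was at 7.2, 7.14, 2.74 and 13.4 CPM in EAM replicates 1 to 4 and at 0.966, 0.528, 0.832 and 1.28 CPM in controls. Gzmb was at 4.39, 3.38, 0.735 and 9.88 CPM against 0.407, 0.192, 0.131 and 0.461 CPM. Klrk1 was at 7.1, 6.0, 1.4 and 19.9 CPM against 0.559, 0.721, 0.525 and 1.13 CPM. Replicate 4 was the highest and replicate 3 the lowest for all 3, over a range of more than 10-fold for Gzmb and Klrk1. Ncr1 was at 1.77, 2.78, 1.34 and 5.91 CPM against 0.458, 0.288, 0.394 and 0.307 CPM, and Prf1 at 4.09, 2.62, 1.6 and 6.24 CPM against 0.458, 0.288, 0.394 and 0.461 CPM. Nkg7 lay between 1.67 and 10.1 CPM in EAM and between 0.192 and 0.768 CPM in control hearts. Klrd1 was at 1.14 to 3.7 CPM, Klrc1 at 0.491 to 1.05 CPM, Klrb1c at 0.602 to 4.36 CPM and Gzmk at 0.201 to 1.05 CPM in EAM hearts, against highest control values of 0.263, 0.102, 0.256 and 0.048 CPM. All 10 genes were highest in EAM replicate 4, and all but Klrc1 were lowest in replicate 3. The summed T cell markers were at 61.5, 38.3, 22.2 and 58.6 CPM in D21 EAM replicates 1 to 4. Of this sum Cd28 gave 10.7 CPM on average, as in the D21 controls. The summed markers of monocytes and macrophages were at 3620, 1850, 1080 and 3100 CPM and those of cardiomyocytes at 17500, 24100, 32000 and 13500 CPM. Replicate 3 was thus lowest and replicates 1 and 4 highest for these leucocytes, and their part in the D21 values was not tested. In EAM replicate 4 the median of the 10 genes was 107% of their mean in D15 EAM hearts, in replicates 1 and 2 it was 51.7% and 47.2%, and in replicate 3 it was 18.9%.

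Of the 7 genes with enough reads at D21, 6 were called higher, where 4.13% of 15266 genes were, and 22.1% of the 680 tested genes without 10 reads in all 4 controls. They were Gzma (log2 fold change 3.11, SE 0.50), Gzmb (3.99, SE 0.79), Prf1 (3.21, SE 0.46), Nkg7 (3.51, SE 0.62), Klrd1 (3.37, SE 0.46) and Ncr1 (3.04, SE 0.53), with adjusted p between 0.00473 and 0.00984 by edgeR's quasi-likelihood test. Klrk1, at 3.59 (SE 0.75), did not pass (adjusted p = 0.0115 by edgeR). Gzmk, Klrc1 and Klrb1c had too few reads in the D21 samples alone. The likelihood ratio test of edgeR and DESeq2 called all 7 (8.88% and 8.93% of all genes) and limma-voom 1 (0.524%), and with no read limit all 10 were called (3.54%). In the fit of all 24 samples all 10 were called at D21 (9.28% of all genes), with log2 fold changes from 3.01 to 5.13 and adjusted p between 0.00023 and 0.00346 by edgeR. Gzmk had 46 reads in EAM hearts and 1 in controls, a ratio of 53.1 with a 95% counting interval from 9.07 to 2140. The calls in the D21 samples depended on single hearts. With any control left out, or EAM replicate 1 or 2, 0 genes of the 3 to 9 tested were called, and 0% to 0.272% of all genes. Where they could be tested, the 7 genes tested with all hearts kept log2 fold changes between 2.44 and 4.31 over the 8 omissions. Without EAM replicate 3, 3 of 3 tested were called (9.78% of all genes), or 8 of 8 with genes kept at 10 reads in at least 3 samples (10.9%), and without EAM replicate 4 it was 1 of 3 (1.98%), or 4 of 7 (2.53%). With the replicate number as a block, 6 were called as well, but Ncr1 was lost (adjusted p = 0.0117 by edgeR) and Klrk1 passed (adjusted p = 0.00734 by edgeR). The share of all genes called with the block was not computed, so this 6 has none beside it.

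**Figure D2:**
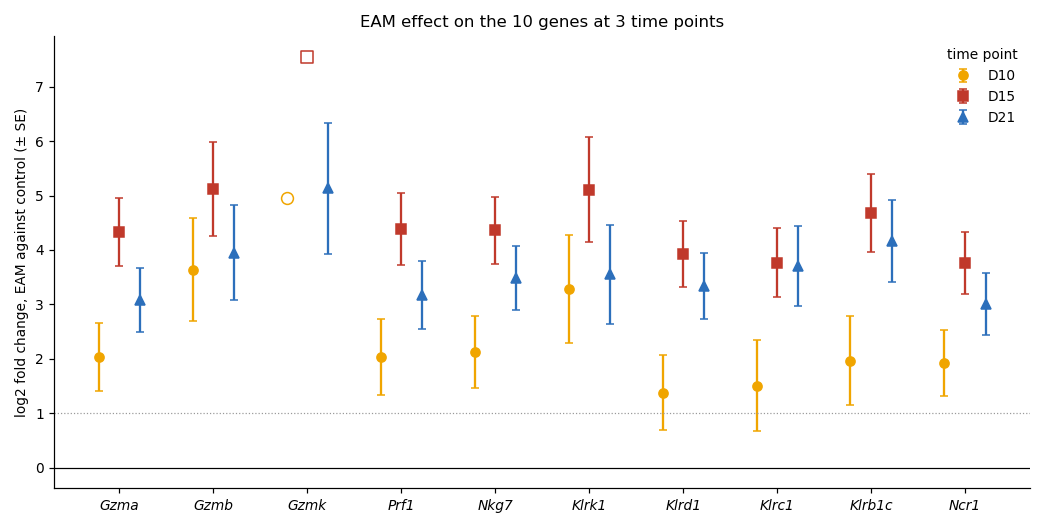
Log2 fold change of EAM against control hearts for each of the 10 genes at D10, D15 and D21, from the fit of all 24 samples, with bars of 1 standard error and a dotted line at a 2-fold change; open symbols mark Gzmk at D10 and D15, which has no standard error because no control heart had a read. Every gene has its highest value at D15.

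Whether the effect of EAM differed between days was tested directly in the fit of all 24 samples. Gzmk has no usable test here, because its controls are at 0. From D10 to D15 the fitted effect was larger for all 10 genes, by 1.48 to 2.70 on the log2 scale, but 0 of 10 passed the limits, where 5.38% of 16318 genes did (adjusted p = 0.0377 or more by edgeR). An unadjusted p under 0.05 was reached by 6 of 10, against 24% of all genes. The likelihood ratio test of edgeR, DESeq2 and limma-voom also called 0. With the replicate number as a block, 2 genes passed, Gzma (adjusted p = 0.00685 by edgeR) and Klrb1c (adjusted p = 0.0083 by edgeR). The share of all genes was not computed for that fit. The result also depended on the heart that stood apart at D10. Without D10 EAM replicate 1 the differences were 2.55 to 4.09 and 6 genes passed by edgeR (Gzma, Prf1, Nkg7, Klrk1, Klrd1 and Klrb1c), where 12.3% of all genes did. From D15 to D21 the effect was smaller for all 10, by 0.06 for Klrc1 to 1.56 for Klrk1 among those with a usable test, and 0 were called (adjusted p = 0.271 or more by edgeR), where 0.919% of genes were called with a smaller effect. None of the 10 had an unadjusted p under 0.05, where 17.3% of genes were lower at that limit, and the other tools called 0. The D15 and D21 contrasts also differ in the library code of the EAM hearts. Between D10 and D21 the effect was larger at D21 for all 10, with 0 called (adjusted p = 0.288 or more by edgeR) and 0 at an unadjusted p under 0.05, where 0.0735% and 8.52% of genes were higher by these limits. The comparisons from D10 to D15 and from D15 to D21 share the D15 hearts.

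In control hearts the 10 genes stayed at a low level on all days. Gzma was at 0.815 ± 0.145, 0.707 ± 0.189 and 0.902 ± 0.312 CPM at D10, D15 and D21 (SD, n = 4 each), and it was the most abundant of the 10 there, also per exon length. Ncr1 was at 0.324 ± 0.143, 0.346 ± 0.253 and 0.362 ± 0.0788 CPM. Between the control hearts of D15 and D10, or of D21 and D10, 0 of 10 were called by edgeR (adjusted p = 0.825 or more), where 0.0919% and 0.214% of all genes were called in either direction, and the differences lay between -0.50 and 0.79 on the log2 scale, apart from Gzmk, which had 1 read in all 12 control hearts. None had an unadjusted p under 0.05, where 6.69% and 12.2% of all genes had one.

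Levels of different genes can be compared once they are divided by exon length. In D15 EAM hearts Gzma stood first, at 14.2 ± 3.24 CPM per kb, followed by Nkg7 at 9.86 ± 2.33 and Gzmb at 7.52 ± 1.84 CPM per kb (SD, n = 4). Each of them exceeded the next in 4 of 4 hearts, although their ranges over hearts overlapped. A gap followed, since the lowest Gzmb value, 4.83 CPM per kb, lay above the highest Ncr1 value, 3.84. Ncr1 (3.1 ± 0.888), Klrd1 (2.36 ± 0.534), Prf1 (2.3 ± 0.684) and Klrk1 (2.17 ± 0.898) had overlapping ranges, and Klrd1 exceeded Prf1 in 2 of 4 hearts. Klrb1c (1.36 ± 0.297), Gzmk (0.848 ± 0.299) and Klrc1 (0.608 ± 0.16 CPM per kb) were the lowest. The reads of Balb/c mice were aligned to a C57BL/6J reference, and the strains differ in the NK gene complex on chromosome 6, so reads of its receptors lost in alignment cannot be seen in these counts and could lower their place. The order by mean was the same at D21, with Gzma at 7.58 ± 4.36 and Klrc1 at 0.359 ± 0.12 CPM per kb. The length of Klrk1, 7183 bases over all its annotated exons, is far above that of the others (914 to 2961 bases), which lowers its place.

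Among the reads of the 10 genes, the share of Klrk1 varied most between the 4 D15 EAM hearts, with 22.5%, 14.2%, 27.1% and 21.9% in replicates 1 to 4. Gzma took 19.3% to 23.2%, Nkg7 10.9% to 15.6%, Gzmb 14.8% to 16.6%, Prf1 7.89% to 8.96% and Ncr1 6.6% to 7.19%. At D21 these 5 spread further, and Klrk1 about as far as at D15. Gzmb took 6.08% in replicate 3 and 10.9% to 13.1% in the others, and Klrc1 took 5.52% in replicate 3 and 1.39% to 1.72% in the others. Klrk1 took 11.6% in replicate 3 and 26.3% in replicate 4. Replicate 3 has only 181 of these reads, so its shares are the least precise at D21. At D10, replicates 2 and 4 have 57 and 73 reads.

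**Figure D3:**
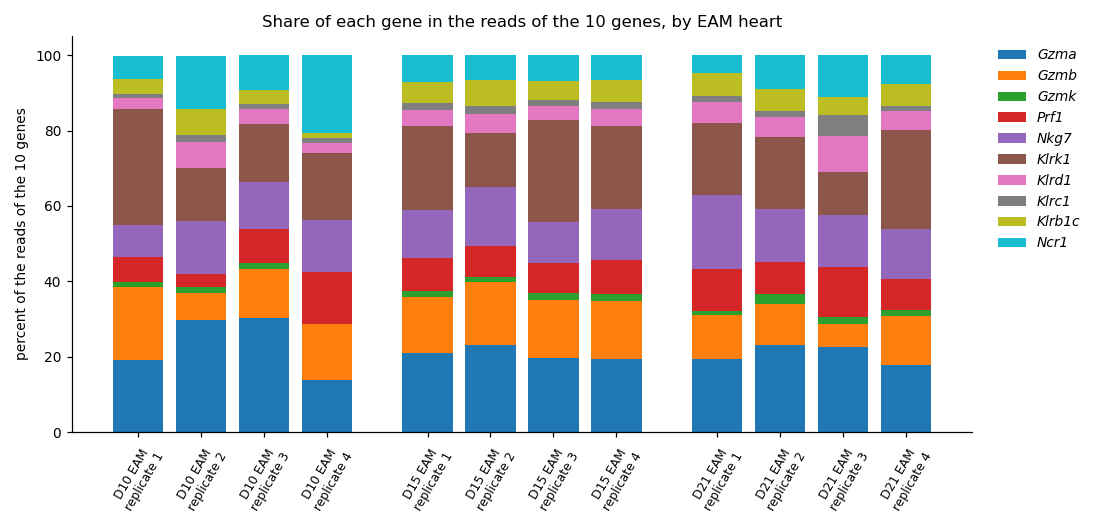
Share of each of the 10 genes in the summed reads of all 10, in percent, for each of the 12 EAM hearts. Klrk1 takes 14.2% to 27.1% in the 4 D15 hearts, where Gzmb takes 14.8% to 16.6%, and Ncr1 takes 20.5% in D10 replicate 4 and 6.13% in D10 replicate 1.

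The levels were next set against Ptprc, which encodes CD45, a protein of nearly all leucocytes. At D15, Ptprc was at 276 ± 30.9 CPM with EAM and at 18 ± 1.92 CPM without (SD, n = 4). As a percentage of the Ptprc level of the same heart, Gzmb was at 3.9 ± 0.834% in D15 EAM and 1.68 ± 0.401% in D15 control hearts, and all EAM hearts lay above all controls. Gzmk was at 0.424 ± 0.14% against 0%, also with no overlap. Gzma was at 5.16 ± 0.955% against 3.95 ± 1.08%, Klrk1 at 5.63 ± 2.42% against 2.43 ± 1.16% and Klrb1c at 1.45 ± 0.222% against 0.836 ± 0.519%, with overlapping hearts. Klrd1 (1.09 ± 0.172% against 1.07 ± 0.485%), Klrc1 (0.432 ± 0.0752% against 0.472 ± 0.534%) and Ncr1 (1.72 ± 0.428% against 2 ± 1.56%) differed by less than the spread between hearts. At D21 the mean percentage was higher in EAM hearts for all 10, with no overlap for Gzmk, Prf1, Nkg7, Klrc1 and Klrb1c. For Gzmk the lowest EAM value was 0.265% and the highest control value, from 1 read, 0.26%. The share of all genes without overlap relative to Ptprc was not computed for any day. On the log2 scale described next, 6 of 10 were higher in D21 EAM hearts, with Gzmk at -0.74, Klrc1 at -0.71, Ncr1 at -0.17 and Klrd1 at -0.09. Two-sided exact permutation tests, adjusted by Benjamini-Hochberg over 10 genes and 3 days, called 0 of these differences (adjusted p = 0.122 or more), and with 4 against 4 hearts the smallest possible p is 0.0286. On the planned scale, log2 with a pseudocount of 0.25 CPM, 0 were called as well (adjusted p = 0.214 or more, exact permutation test), but directions turned. On that scale Klrb1c (-0.50), Klrd1 (-1.04), Klrc1 (-1.77) and Gzmk (-1.47) were lower in D15 EAM than in control hearts, all with the smallest possible p, and so were Prf1 (-0.39), Nkg7 (-0.16) and Ncr1 (-0.78). The pseudocount raises the control ratio most for the first 4, whose mean control levels lie under it. It also raises that of Prf1, Nkg7 and Ncr1, with mean D15 control levels of 0.277, 0.438 and 0.346 CPM. The direction relative to Ptprc at D15 thus depends on the scale for Klrb1c, Klrd1, Gzmk, Prf1 and Nkg7. Between D15 and D21 EAM hearts the percentage was higher at D21 for 9 of 10 genes and lower for Gzmb, and 0 of 20 comparisons between days passed (adjusted p = 0.0952 or more, exact permutation test). With the mean of Cd3d, Cd3e and Cd3g, the T cell receptor chains, in place of Ptprc, and with the same pseudocount, 0 of 10 passed on any day or between days (adjusted p = 0.143 or more, exact permutation test). For all 10 the log2 ratio to the Cd3 genes was lower in D21 EAM than in D21 control hearts, with a median difference of -0.54, and lower in D21 than in D15 EAM hearts, with a median of -0.46. The ratio to the Cd3 genes was not computed without a pseudocount.

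**Figure D4:**
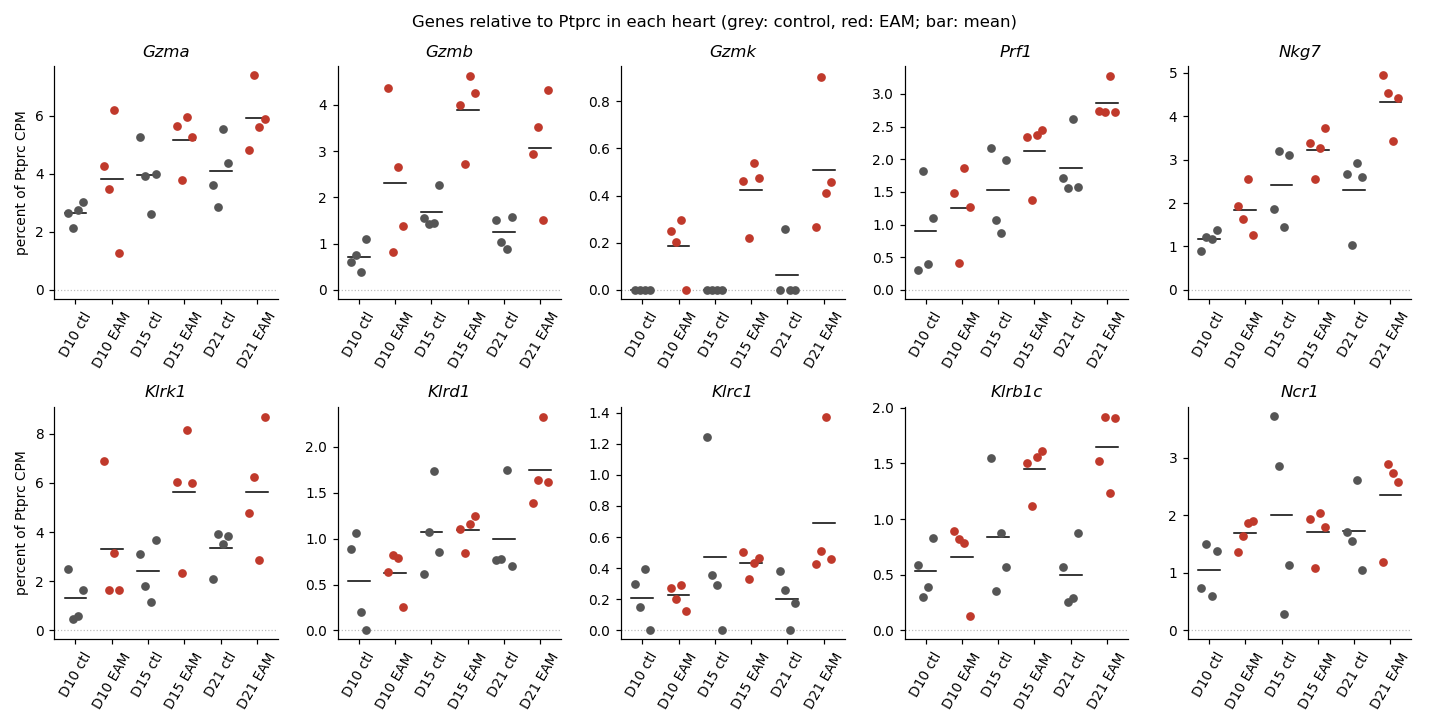
Level of each of the 10 genes as a percentage of the Ptprc level (CPM over CPM, linear axis with its own range for each gene, no pseudocount) in every heart, control hearts in grey and EAM hearts in red, with a bar at the mean of 4 hearts. At D15 the EAM hearts lie above the controls for Gzmb and Gzmk and overlap them for the other 8.

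Other cells that could carry the 10 genes were read from their markers. Of 8 T cell markers 7 were tested at D15 and 6 were called higher, although only 1 of the 7 had 10 reads in all 4 controls, and their summed level was 44.4 to 53.5 CPM in EAM and 12.9 to 14.7 CPM in control hearts. Cd8a, the CD8 coreceptor of cytotoxic T cells, was at 4.08, 2.21, 3.33 and 5.06 CPM in D15 EAM hearts and at 0.0589 to 0.313 CPM in controls (log2 fold change 4.06, SE 0.41). Cd4 was at 18.4 CPM on average and 0.644 CPM in the controls (log2 fold change 4.85, SE 0.25). Both CD8 and all 4 CD4 T cell markers were called at D15, where 18.1% of all genes were called higher. None of these markers had 10 reads in all 4 controls, and 54.7% of tested genes without such reads were called higher. Of the 5 measured gamma-delta T cell markers, only Sox13 had enough reads, and it was lower at D15 (log2 fold change -1.07, SE 0.13, adjusted p = 5.35e-05 by edgeR). Sox13 was at 32.3 CPM in D15 controls, where Cd3e was at 0.506 CPM, so its change cannot be read as one of gamma-delta T cells. The 4 mast cell markers tested had a median log2 fold change of 0.24 with 0 called, and of 3 B cell markers tested 1 was called. Of 5 markers of plasmacytoid dendritic cells, 4 were tested and 2 called. All 6 markers of monocytes and macrophages and all 6 of neutrophils were called, with medians of 3.27 and 3.38. Most T cell markers and the CD8, monocyte and neutrophil markers were thus higher in D15 EAM hearts together with the 10 genes. Among the D15 EAM hearts they did not share one order. Replicate 2 was lowest for the 10 genes, with 41.9 CPM in all against 73.3 to 82.2 CPM. It was also lowest for the summed CD8 markers, at 3.72 CPM against 5.83 to 7.49 CPM. It was highest for the monocyte (3790 CPM) and neutrophil markers (827 CPM). The T cell markers were lowest in replicate 3 (44.4 CPM). How much of the RNA of the 10 genes came from NK cells and how much from T cells was not tested.

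The remaining genes of the pathway were read from lists of known function, chosen with earlier results of these data in view. Their counts of called genes stand beside 18.1% of all genes called higher at D15, 4.13% at D21 and 0% at D10. Beside the 5 receptors above, 26 other NK cell receptors were listed, 25 were in the table, and 19 had enough reads at D15. All 19 were called higher, but only 2 of them had 10 reads in all 4 controls, so that the other 17 could be tested only if they were high in EAM, and of all tested genes without such reads 54.7% were called higher. They include Klrg1 (4.90, SE 0.56), Klri2 (4.11, SE 0.34), Cd160 (2.74, SE 0.41), the inhibitory receptor Tigit (7.55, SE 0.54) and Fcgr3, the low-affinity Fc receptor that myeloid cells also express (3.37, SE 0.17). At D21, 5 of 5 tested were called, 3 of them with 10 reads in all 4 controls, and at D10 0 of 4. Of the adaptors and signalling proteins behind the receptors, 12 of 12 tested were called at D15, 7 of them with 10 reads in all 4 controls, and 10 of 11 at D21, 8 of the 11 with such reads. Hcst, the DAP10 adaptor of NKG2D, had a log2 fold change of 4.40 (SE 0.21) at D15 and Tyrobp, the DAP12 adaptor that myeloid cells share, 3.57 (SE 0.12). Of the ligands of NKG2D and of CD94-NKG2A, 5 of 5 tested were called at D15, 2 of them with 10 reads in all 4 controls, 0 of 2 at D10 and 1 of 2 at D21. Those called at D15 include Raet1e (4.34, SE 0.43), Raet1d (4.39, SE 0.53) and H2-T23, which encodes Qa-1 (2.47, SE 0.09).

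Among the other granule proteins, Ctsw, a protease of cytotoxic cells, was at 6.49, 3.72, 4.94 and 8.22 CPM in D15 EAM hearts and at 0.118 to 0.573 CPM in controls (log2 fold change 4.42, SE 0.43). Ctsc, which activates granzymes and is also made by myeloid cells, had a log2 fold change of 3.95 (SE 0.11). Gzmm went the other way. It was at 9.38, 10.3, 7.93 and 9.13 CPM in D15 control hearts and at 2.46, 1.02, 3.67 and 1.81 CPM in EAM hearts, a log2 fold change of -2.01 (SE 0.31, adjusted p = 0.000277 by edgeR; 12.9% of all genes were called lower), while at D10 and D21 it did not pass. Its lowest value at D15 was in replicate 2 and its lowest at D21, 2.54 CPM, in replicate 4, the hearts in which the cardiomyocyte markers were also lowest (7230 and 13500 CPM). The part of cardiomyocytes in the Gzmm values was not tested. Of 7 genes of granule release in the table, 6 were called at D15 (median 1.94), led by Unc13d (3.80, SE 0.16), the priming factor Munc13-4. Lamp1, a general lysosomal protein seen on the surface after granule release, had a log2 fold change of 0.48 (SE 0.11).

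Of 8 death ligands and effector cytokines tested at D15, 7 were called, and 3 of the 8 had 10 reads in all 4 controls. Ifng was at 5, 2.38, 6.5 and 4.55 CPM in D15 EAM hearts and at 0 to 0.0591 CPM in controls (log2 fold change 7.14, SE 0.61). Fasl, the ligand of the death receptor Fas, had 5.60 (SE 0.55), and the chemokine Ccl5 6.39 (SE 0.30). Tnfsf10, which encodes TRAIL, had 0.12 (SE 0.12, adjusted p = 0.386 by edgeR). Of the transcription factors of cytotoxic lymphocytes, 7 of 9 tested were called at D15, with a median of 1.80. Eomes was at 3.41, 1.72, 3.42 and 3.55 CPM in EAM and at 0.0591 to 0.156 CPM in control hearts (log2 fold change 4.74, SE 0.39), Tbx21, which encodes T-bet, had 4.68 (SE 0.33), and Runx3 3.99 (SE 0.24). Klf2 and Tox did not pass, at -0.24 (SE 0.14) and -0.02 (SE 0.30). Of cytokines and receptors that drive NK cells, 7 of 10 tested were called. The receptor chains Il2rb (4.76, SE 0.20), Il12rb1 (5.44, SE 0.38) and Il18rap (5.20, SE 0.14) rose, while Il15 itself was at -0.08 (SE 0.17, adjusted p = 0.705 by edgeR).

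**Figure D5:**
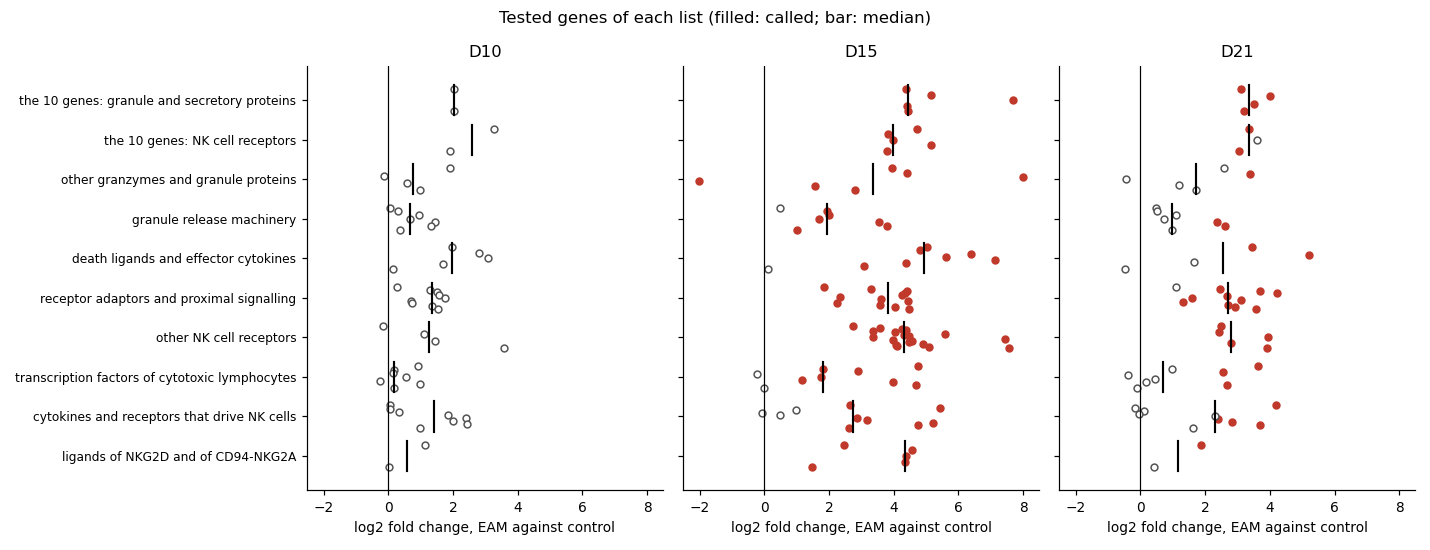
Log2 fold change of EAM against control hearts for the tested genes of each list at D10, D15 and D21, each day fitted on its own 8 samples, with filled red points for called genes, open points for the others and a bar at the median of the list. The marker lists of other cell types are not plotted. At D10 no plotted gene is called, and at D15 Gzmm is the only plotted gene called below 0.

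The genes with a pattern most like that of the 10 were found over the 12 EAM hearts, as those with the smallest root mean square difference between their centred log2 levels and the mean of the 10. Ms4a4b, a membrane protein of T and NK cells, was the nearest of 15342 genes, with a difference of 0.15 on the log2 scale, where the median of all genes was 1.28 and Ptprc had 0.33. It was at 3.58, 13.8 and 7.89 CPM on average in D10, D15 and D21 EAM hearts. Next came Tlr9 (0.22), Tlr12 (0.25), Irf8 (0.26) and, all at 0.27, Map4k1, Il10ra, Ccr4, Arhgap15, Galnt3 and Runx3. Tlr9, Tlr12 and Irf8 are better known from dendritic cells and B cells than from NK cells. For Ncr1 alone the nearest were Nup210 (0.26), Galnt3 (0.28) and Txk (0.29), a kinase of T and NK cells. For Gzmb alone they were Il12rb1 and Klra2 (0.21 each) and Mefv (0.23), which is the pyrin gene of myeloid cells. Of the 10 themselves, Klrb1c lay closest to their mean, with 0.22, and Klrk1 farthest, with 0.56.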

How the data were processed

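RNA of 24 hearts was sequenced with a directional kit as 75-base read pairs. Per the labels and the study's methods, the authors aligned the reads to GRCm38 with HISAT2 2.0.4, removed duplicate reads with Picard and counted reads per gene with featureCounts, and they deposited raw counts. For the strand setting of the counting, nothing is given in the sources used here. The Balb/c reads were aligned to a C57BL/6J reference.

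From these counts, each day was tested on its own 8 samples with edgeR 4.0.16 (TMM scaling, quasi-likelihood test, R 4.3.3) over genes that had 10 or more reads in 4 or more samples, with Benjamini-Hochberg adjustment over all of them. Differences between days came from one fit of all 24 samples. DESeq2 1.42.0 and limma-voom (limma 3.58.1) were alternatives. The edgeR test was also run on counts simulated from control means, and its outcome is not given here. Ratios used a pseudocount of 0.25 CPM and exact permutation tests. Exon lengths are from GENCODE M21, promoters from RefSeq.

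The 10 genes, the other lists and the rules for the genes named were chosen with earlier results of these data known. Named are the 10 genes, genes of the lists, and the genes whose profile over the 12 EAM hearts was nearest. Groups were taken from the labels. Nothing in them says more about the samples of a group than that they are separate mice, and the p-values measure the spread between these hearts. Counts of no pair of replicates agreed within sampling noise. Protein sequences were not used here.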

Additional observations from a re-analysis of the deposited data

Results flagged for a closer look

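Hearts are listed here where the gap between the highest or lowest of the 4 hearts of a group and its neighbour made up so much of the group's range that it passed Dixon's limit at 95%. Of 58 groups looked at (10 genes in 6 groups, without those at 0 throughout), 7 met this limit, and chance alone gives about 1 in 20. In D10 EAM hearts, replicate 1 stood above the others for Gzmb, at 8.44 CPM, and for Klrk1, at 13.3 CPM. In D15 EAM hearts, replicate 2 stood below the others for Klrk1, at 5.96 CPM, and for Gzmk, at 0.561 CPM. The 3 control values were small: 0.471 CPM of Gzmb in D15 replicate 4, 0.41 CPM of Nkg7 in D10 replicate 2 and 0.048 CPM of Gzmk in D21 replicate 2, which is 1 read.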

How the results depend on the processing

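At D15 all 10 genes were called under every alternative with all 8 hearts, for most of which the share of all genes was not computed. With a heart left out 4 to 10 were called, and 15.5% to 18.2% of all genes. Without 1 EAM heart only 4 genes met the read limit, since it then asks for 10 reads in at least 4 of the 7 hearts. All 10 were called with 10 reads in at least 3 (17.6% to 19.1% of all genes), an alternative added after the data had been seen. At D21, where 6 were called, scaling by total counts called 5, without Gzmb (adjusted p = 0.0101 by edgeR), limma-voom 1, no read limit 10 and one fit of all 24 samples 10, where for the last 3 0.524%, 3.54% and 9.28% of all genes were called higher. The share of all genes with scaling by total counts was not computed. With a heart left out it was 0 to 3 of the 3 to 7 tested as planned and 0 to 8 with the lower read limit (0% to 9.78% and 0% to 10.9% of all genes). The count was 0 without any control or without EAM replicate 1 or 2.

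Whether replicate numbers pair EAM and control hearts is not said in the labels. Deviations of same-numbered hearts correlated above 0.1 in 2 of 4 pairs at D10, 0 of 4 at D15 and 3 of 4 at D21 (range -0.0978 to 0.344), so they were not taken as pairs. At D21, 3 of 4 hearts correlated best with their own number. With a replicate block the calls were 0, 10 and 6 at D10, D15 and D21, with Klrk1 in place of Ncr1 at D21. The share of all genes called with the block was not computed. For the change of the effect from D10 to D15, 0 genes were called, 2 with the replicate block (Gzma and Klrb1c) and 2 at an FDR under 0.05 with no fold limit. The share of all genes was not computed for the last 2 settings. With a heart left out 0 to 6 were called (2.98% to 12.3% of all genes), the 6 without D10 EAM replicate 1. From D15 to D21 no alternative called a gene, and 2 genes changed sign with a heart left out, Klrc1 between -1.07 and 0.47 and Klrb1c between -1.02 and 0.07. The cause was not tested. No member was called at D10, and no ratio to Ptprc passed, under any alternative, including one with no pseudocount that was added after the data had been seen. Depth limits Gzmk and Klrc1 most, with at most 4 reads in a control heart.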

Other observations

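A second group of granzymes had a pattern of its own. Gzmc, Gzmd, Gzme, Gzmf and Gzmg, neighbours of Gzmb on chromosome 14, had 1 read in all 12 control hearts together, of Gzmc. At D10 only Gzmc had reads in EAM hearts, at 0.619 CPM in replicate 1 and 0.106 CPM in replicate 4. At D15, Gzmc was at 1.46, 1.93, 0.633 and 1.66 CPM in EAM replicates 1 to 4 and was called higher (adjusted p = 0.000347 by edgeR). Gzmd was at 1.58, 0.806, 0.0422 and 1.24 CPM and Gzmf at 1.12, 0.245, 0.0422 and 1.04 CPM, so that replicate 3, in which Gzmb was at 11.3 CPM, was lowest for these genes.

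At D21, the highest values were in replicate 1, with 3.2 CPM of Gzmc, 7.64 of Gzmd, 2.61 of Gzme, 8.73 of Gzmf and 9.81 of Gzmg. In replicate 4, where Gzmb was highest at 9.88 CPM, they lay between 0.276 CPM (Gzme) and 1.66 CPM (Gzmd), and in replicate 3 all 5 were at 0. Replicate 1 was also highest for the summed T cell (61.5 CPM), monocyte and macrophage (3620 CPM) and B cell markers (8.92 CPM). Those of neutrophils (386 CPM) and CD4 T cells (34.8 CPM) were highest in replicate 4. Gzmd, Gzme, Gzmf and Gzmg had too few reads in the samples of any single day for the test of that day. The genes share sequence: 5.73% of the 75-base stretches of Gzmd, 4.75% of Gzme and 6.83% of Gzmg are found in another gene, and none of those of Gzmc and Gzmf.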
